A study of Mus musculus with 5 samples.

Results

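Aim2 and the Ifi200 genes encode the mouse PYHIN proteins, and 8 of them (Aim2, Ifi202b, Ifi203, Ifi204, Ifi205, Ifi207, Ifi209 and Ifi211) were examined among the 55573 genes of the count tables. They were chosen by name, with earlier vehicle and UMBO values of these genes known. Their values in that contrast are therefore given as a description. Counts of members called and counting intervals are printed for scale, and nothing is read from them. All 8 symbols were found once in each of the 5 tables.

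PYHIN proteins typically join a pyrin domain, which binds other pyrin domains, to a HIN domain, which binds double-stranded DNA. AIM2 is the sensor of DNA in the cytosol that assembles an inflammasome with ASC (encoded by Pycard) and caspase-1, and that leads to cleavage of gasdermin D and release of interleukin-1β and interleukin-18. Many genes of the family are induced by interferon and are best known in macrophages and other leukocytes. In a brain that carries a tumor, microglia, infiltrating myeloid cells and tumor cells can all express them.

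RNA came from the right hemisphere of C57BL/6 females that were inoculated at 7 to 8 weeks of age with GL261 glioma cells. GL261 is a mouse glioma line, here carrying luciferase and mKate2, and both groups received it in the right caudate nucleus-putamen. The vehicle group (3 libraries, 1 mouse each) received inVivoPure Dilution Buffer, and the UMBO group (2 libraries) received ultrasound-mediated blood-brain barrier opening, in which low-intensity pulsed ultrasound is applied after intravenous microbubbles. Sessions were on days 21 and 24, and tissue was taken 24 h after the last. A library of a whole hemisphere mixes tumor, brain and immune cells, so more cells of a type and more RNA per cell cannot be told apart.

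Libraries held from 59736771 to 86164159 counted reads. CPM are counts scaled to a common library size, here by the TMM method. Snap25, a synaptic gene of neurons, was at 824.5 CPM or above in every library of this brain tissue. UMBO replicate 2 stood apart, with the lowest value of all 6 neuronal markers and the highest of all 8 proliferation markers, so fold changes of the members and medians of the gene lists are given with and without it. Across all 23592 genes tested, edgeR's quasi-likelihood test called 0 genes at an adjusted p under 0.05. Unadjusted, 1738 genes had a p under 0.05, and the DESeq2 Wald test called 40 genes after adjustment.

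The genes lie together on the distal part of chromosome 1 of GRCm38, between 173350879 and 174031810, a span of 680.9 kb with 13 protein-coding genes in the GENCODE M21 annotation. The members follow each other as Aim2 (173350879 to 173466040, forward strand), Ifi209 (173630917 to 173647928, forward strand), Ifi207 (173723427 to 173741747), Ifi204 (173747293 to 173766943), Ifi211 (173896345 to 173913046), Ifi203 (173920407 to 173942672), Ifi202b (173962568 to 173982744) and Ifi205 (174011998 to 174031810), the last 6 on the reverse strand. The proximal neighbors Cadm3 and Ackr1 and the distal neighbors Olfr433 and Olfr432 belong to other families.

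Genes of the family are known as interferon targets, so their promoters were searched for short motifs. RefSeq promoters on GRCm38.p6 (250 bases before to 50 after the start) were found for 7 of the 8 members, not for Ifi204. The interferon-stimulated response element (ISRE, searched on both strands as GAAA, any 2 bases and GAAA again) was present in 4 of these 7, Ifi203, Ifi205, Ifi207 and Ifi211, and in all 5 of the other cluster genes with a promoter (Ifi206, Ifi208, Ifi213, Ifi214 and Mndal). It was present in 3.99% of the 27025 genes with a promoter and in 3.44% of all 32851 promoters of that length. The 50-base stretches that follow, all before a RefSeq start, are shown because the bases around the element are alike too. Capitals mark the element, or for Ifi209 the bases at its place.

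Ifi203 (chr1:173942498-173942547, reverse strand): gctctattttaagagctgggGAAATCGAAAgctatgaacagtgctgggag
Ifi207 (chr1:173741821-173741870, reverse strand): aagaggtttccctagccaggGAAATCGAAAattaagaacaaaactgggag
Ifi211 (chr1:173913054-173913103, reverse strand): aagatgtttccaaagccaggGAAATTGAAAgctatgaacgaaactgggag
Ifi205 (chr1:174031860-174031909, reverse strand): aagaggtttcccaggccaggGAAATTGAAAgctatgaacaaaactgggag
Ifi209 (chr1:173630760-173630809, forward strand): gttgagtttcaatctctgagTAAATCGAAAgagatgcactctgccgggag

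The Ifi205 and Ifi211 stretches were identical at 46 of 50 bases, and the Ifi203 stretch, from the second of its 2 RefSeq promoters, at all 50 with a stretch of Mndal elsewhere in the cluster. Ifi209 had no exact ISRE. Its stretch, chosen as the one most like an ISRE stretch of another gene of the cluster, matched that of Ifi214 at 45 bases and differed from the element by the substitution G1T, counted from 1 at the 5′ end of the element. In Ifi203, Ifi207 and Ifi211 the element began 35 to 41 bases before the start, and in Ifi205 134 bases before it, with another match on the opposite strand after the start. Aim2 and Ifi202b had no exact ISRE in this window, and their best 50-base stretches matched one of the cluster at 23 bases. Each had a match to the element with 1 mismatch, as Ifi209 did, but on the opposite strand. It began 51 bases before the start in Aim2 and lay after the start in Ifi202b. How many of all promoters hold such a near match was not counted. The RefSeq start used for Aim2 lies inside its annotated span, with the stretch at chr1:173420369-173420418. The Aim2 promoter held the PU.1 core GAGGAA at 140 and 113 bases before the start, a motif found in 28.3% of all promoters. The Ifi202b promoter held the gamma-activated sequence (GAS, TTCNNNGAA), found in 8.3% of all promoters. The composite element of PU.1 and interferon regulatory factors (GGAA, any 2 bases and GAAA, which can overlap an ISRE), found in 2.72% of all promoters, was in none of the 7 members' promoters. A match is only a match of letters, and none of these sites was measured here.

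**Figure D1:**
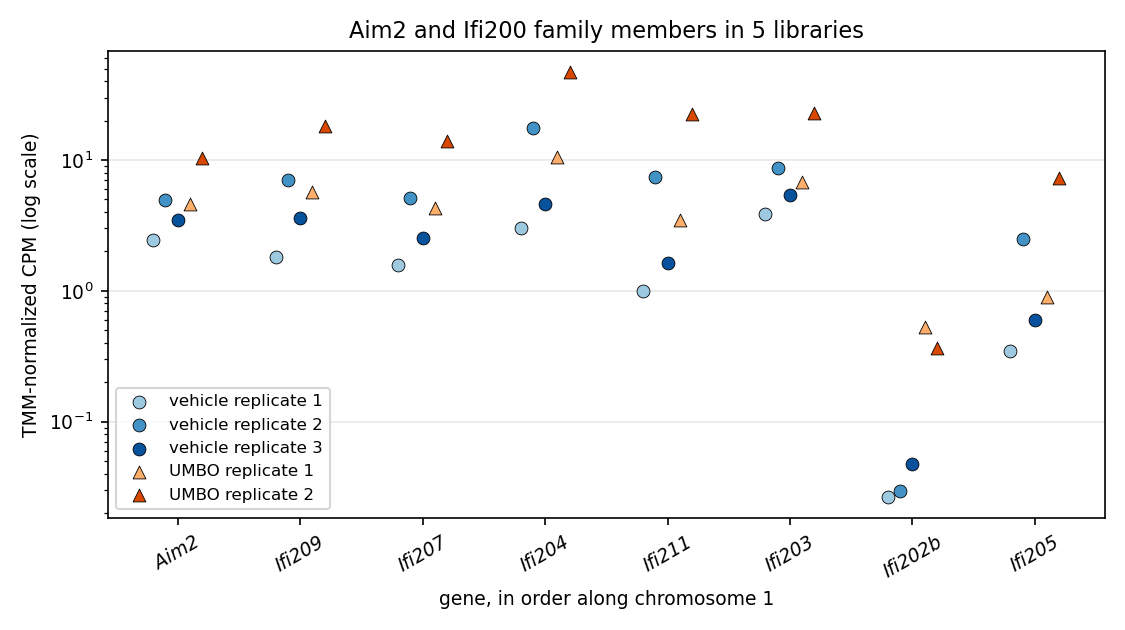
TMM-normalized CPM (log scale) of the 8 genes in each library, with 3 vehicle libraries as circles and 2 UMBO libraries as triangles. In 7 genes vehicle replicate 2 lies above UMBO replicate 1, while for Ifi202b both UMBO libraries (0.527 and 0.366 CPM) lie above all vehicle libraries.

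Aim2, the inflammasome sensor, was at 2.46, 4.97 and 3.48 CPM in vehicle replicates 1 to 3, and at 4.57 and 10.4 CPM in UMBO replicates 1 and 2. UMBO replicate 1 lay below vehicle replicate 2, so the groups overlapped. The log2 fold change of UMBO against vehicle was 1.04 (standard error 0.461), and 0.33 without UMBO replicate 2. Aim2 spread least among the 7 members other than Ifi202b, with the highest library 4.23-fold above the lowest. None of its 100-base transcript windows was shared with a transcript of another gene.

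Ifi204 encodes p204, a DNA-binding PYHIN protein linked to the STING pathway and to macrophage differentiation. It was at 3.01, 17.7 and 4.63 CPM with vehicle and 10.5 and 47.0 CPM with UMBO. The vehicle mean was 8.45 ± 8.05 CPM (SD, n = 3). The vehicle libraries alone spread 5.88-fold, and vehicle replicate 2 lay above UMBO replicate 1. The log2 fold change was 1.77 (standard error 0.908), and without UMBO replicate 2 it was 0.31. Of its 100-base windows 10.7% were shared with other transcripts, mostly of Ifi211.

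Ifi205 and Ifi211 are close relatives, p205 being known as a regulator of ASC expression in macrophages. Ifi205 was the second rarest member, with 26, 168 and 51 vehicle reads and 77 and 478 UMBO reads (0.348, 2.49 and 0.602 CPM against 0.901 and 7.30 CPM). UMBO replicate 1 was within the range of the vehicle libraries and below their mean of 1.15 ± 1.17 CPM (SD, n = 3). Ifi211 was at 1.00, 7.42 and 1.63 CPM with vehicle and 3.45 and 22.3 CPM with UMBO, again with vehicle replicate 2 above UMBO replicate 1. Between the extreme libraries, vehicle replicate 1 and UMBO replicate 2, Ifi205 differed 21.0-fold and Ifi211 22.2-fold, the widest spreads among the members. The log2 fold changes were 1.84 (standard error 1.09) for Ifi205 and 1.94 (standard error 1.06) for Ifi211. Without UMBO replicate 2 they were -0.34 and 0.04, so the direction for Ifi205 turned. The pair is hard to separate: 56.9% of the 100-base windows of Ifi211 transcripts occur in transcripts of other genes, most often of Ifi205 (37.2%), and reads there can be lost or misplaced.

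Ifi203, Ifi207 and Ifi209 encode further interferon-inducible PYHIN proteins. Ifi203 was at 3.86, 8.74 and 5.42 CPM with vehicle and 6.76 and 23.0 CPM with UMBO. Ifi207 was at 1.58, 5.09 and 2.54 CPM with vehicle and 4.29 and 13.9 CPM with UMBO. Ifi209 was at 1.81, 7.02 and 3.61 CPM with vehicle and 5.65 and 18.0 CPM with UMBO. In each of the 3 genes UMBO replicate 1 fell between vehicle replicates 2 and 3. The log2 fold changes were 1.31 (standard error 0.576), 1.57 (standard error 0.655) and 1.51 (standard error 0.686). Without UMBO replicate 2 they were 0.17, 0.48 and 0.45. Ifi209 shares 16.9% of its windows with Ifi214, whereas Ifi203 shares 2.8% and Ifi207 0.8% of theirs with other genes.

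Ifi202b behaved unlike the other 7 members. It encodes p202, which lacks the pyrin domain and is known to hold AIM2 in check, and it is known for low expression in C57BL/6 mice. It had 2, 2 and 4 reads with vehicle and 45 and 24 reads with UMBO. Both UMBO libraries lay above all vehicle libraries, and UMBO replicate 1, not UMBO replicate 2, was the highest. In CPM this was 0.0267, 0.0297 and 0.0472 with vehicle against 0.527 and 0.366 with UMBO. The 95% exact Poisson intervals, which cover counting error only, reached at most 0.121 CPM in a vehicle library and began at 0.235 CPM or above in the UMBO libraries. Pooled over the libraries of a group, 69 reads against 8 gave a ratio of 13.0, with a 95% counting interval (exact Clopper-Pearson) from 6.22 to 31.2. The unit of this interval is the read, not the mouse. It leaves out the spread between mice, and no group difference is read from it. Vehicle replicates 1 and 2 were below a floor of 3 reads. The log2 fold change was 3.62 (standard error 0.486), between 3.30 and 3.91 with any 1 library left out, and 3.85 without UMBO replicate 2. Its standard error depended on the fit, at 0.616 with no filter on low counts and 0.849 in the DESeq2 Wald test. With so few vehicle reads, the smaller value is not read as greater precision than in the other members. Ifi202b was the 1 member that passed the filter on low counts through the UMBO group alone. It therefore had to differ to be tested. None of its 100-base windows was shared with other transcripts, and no exon of another gene overlaps it.

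Both UMBO libraries were above every vehicle library in 1 of the 8 members, beside 11.5% of all genes tested, and again in 1 without UMBO replicate 2, beside 18.5%. Without vehicle replicate 2 it was 8 of 8, beside 30.8% of the genes tested, and without UMBO replicate 1 also 8 of 8, beside 42.5%. With edgeR, 0 of the members reached an adjusted p under 0.05, beside 0.0% of all genes tested. With the DESeq2 Wald test Ifi202b was called, where 0.179% of the genes tested were. With the replicate number as a block in edgeR, 8 of 8 members and 9.42% of the genes tested had an adjusted p under 0.05, and without UMBO replicate 1 it was 4 of 8 members and 18.3%. Nothing is read from these counts, since the members were chosen on the same contrast. The order of the libraries was the same in the 7 other members, from UMBO replicate 2 down through vehicle replicate 2, UMBO replicate 1 and vehicle replicate 3 to vehicle replicate 1. UMBO replicate 2 was the highest library in 40.4% of all genes tested, and vehicle replicate 1 the lowest in 24.0%. All 8 members had a higher mean in the UMBO libraries, as did 50.9% of all genes tested. The median log2 fold change of the members was 1.67 against 0.01 over all genes tested, and 0.32 without UMBO replicate 2.

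**Figure D2:**
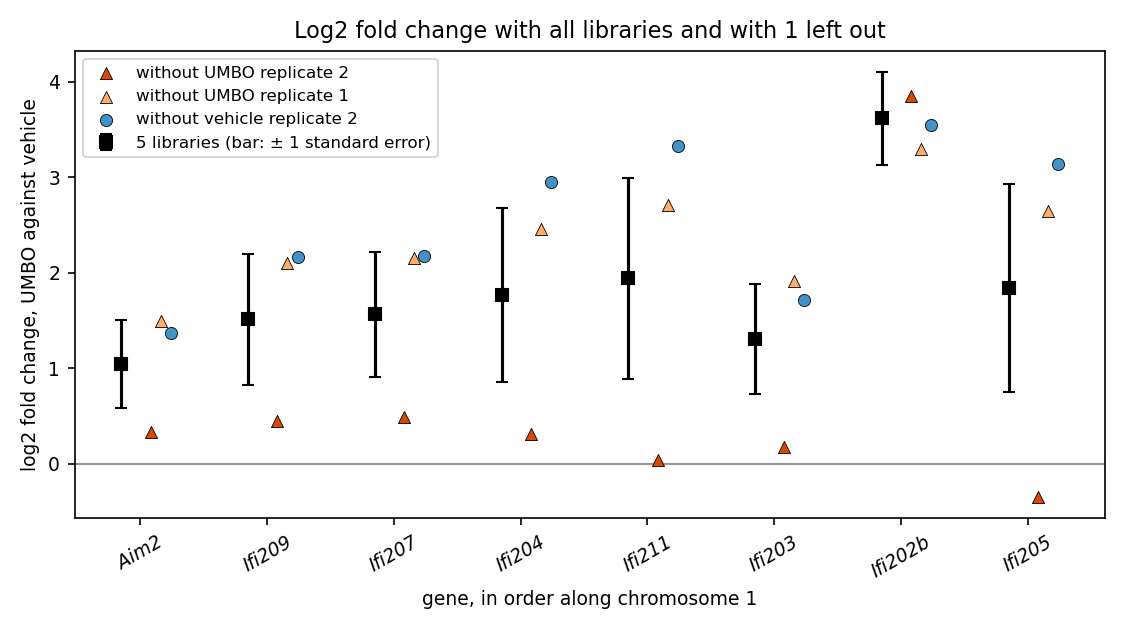
Log2 fold change of UMBO against vehicle for each member with all 5 libraries (squares, bars are 1 standard error) and with 1 library left out. Without UMBO replicate 2 the values of 7 members fall to between -0.34 and 0.48, while Ifi202b stays at 3.85.

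The same span holds 6 further genes of the family that were not in the list of members, and all 6 had higher mean values with UMBO. Their log2 fold changes were close to each other, at 1.57 (standard error 0.696) for Mndal, 1.53 (standard error 1.04) for Ifi208, 1.49 (standard error 0.857) for Ifi214, 1.49 (standard error 0.71) for Ifi213, 1.47 (standard error 0.797) for Ifi206 and 1.25 (standard error 0.493) for the pseudogene Ifi203-ps. The median was 1.49, and 0.13 without UMBO replicate 2, where 4 of the 6 were higher and Ifi208 (-0.06) and Ifi214 (-0.26) lower. Ifi214 was the rarest of them, with 9, 20 and 8 vehicle reads and 12 and 54 UMBO reads. Ifi203-ps was the 1 gene of the 6 with both UMBO libraries above all vehicle libraries, at 0.388, 0.326 and 0.413 CPM against 0.491 and 1.31 CPM. Such separation was seen in 11.5% of all genes tested. Outside the family, the cell adhesion gene Cadm3, which overlaps the start of Aim2 on the other strand but shares none of its exonic bases, was at a log2 fold change of -0.43 (standard error 0.432). Ackr1, an atypical chemokine receptor, was at 0.26 (standard error 0.178). The olfactory receptor genes Olfr433 and Olfr432 had at most 3 reads in any library.

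**Figure D3:**
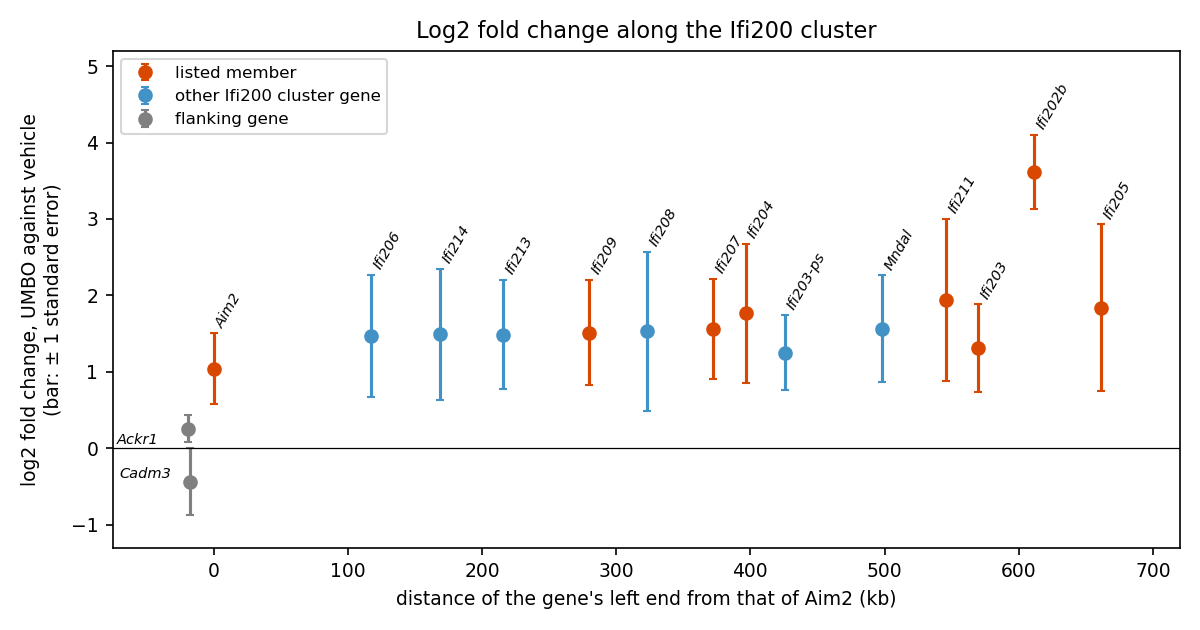
Log2 fold change of UMBO against vehicle (bars are 1 standard error) plotted against the distance of each gene's left end from that of Aim2, in kb. The members and the 6 other cluster genes lie between 1.04 and 1.94 apart from Ifi202b at 3.62, and the flanking genes Cadm3 and Ackr1 lie at -0.43 and 0.26.

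Levels of the members were compared with each other as CPM per kb of exon, on the union of annotated exons. Averaged over the 5 libraries, the order from the highest was Ifi204 (4.65 CPM per kb), Ifi211 (4.01), Ifi209 (2.04), Ifi207 (1.60), Aim2 (1.48), Ifi203 (1.43), Ifi205 (0.557) and Ifi202b (0.117). Ifi204 ranked first in 5 of 5 libraries. Below it the order depended on the library, and libraries with a high sum weigh most in the mean. Of the Ifi211 windows 56.9% occur in other transcripts, against 10.7% for Ifi204, so reads can be lost or misplaced. The level and share of Ifi211, and its distance from Ifi204, are therefore uncertain. Aim2 ranked second in vehicle replicate 1, above Ifi211 in vehicle replicates 1 and 3, and sixth in UMBO replicate 2, and Ifi209 was above Ifi211 in vehicle replicate 3. Ifi207 was above Aim2 in 2 of 5 libraries and Aim2 above Ifi203 in 4 of 5, so the genes from Ifi211 to Ifi203 cannot be put in 1 order. Ifi205 and Ifi202b were the lowest pair in every library. Mean levels without UMBO replicate 2 were 2.51 for Ifi204, 1.89 for Ifi211, 1.11 for Aim2 and 0.986 CPM per kb for Ifi207. The summed level of the 8 genes was 3.76, 15.9 and 5.95 CPM per kb with vehicle and 10.6 and 43.2 with UMBO. The sum was thus higher in vehicle replicate 2 than in UMBO replicate 1.

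The make-up of the sum differed between libraries. Aim2 made up 18.7% and 16.7% of it in vehicle replicates 1 and 3, 12.4% in UMBO replicate 1, 8.91% in vehicle replicate 2 and 6.89% in UMBO replicate 2. Its share was lower where the sum was higher. Ifi211 went the other way, with at most 15.3% in vehicle replicates 1 and 3, 18.3% in UMBO replicate 1, 26.1% in vehicle replicate 2 and 28.9% in UMBO replicate 2. Ifi204 ranged from 21.9% to 31.2% and Ifi203 from 7.94% to 15.3%. Ifi202b made up 2.94% in UMBO replicate 1 and at most 0.468% in the vehicle libraries and 0.50% in UMBO replicate 2. Shares depend on the length used, and with the longest transcript in its place the mean share moved from 26.8% to 32.6% for Ifi204 and from 10.9% to 15.3% for Ifi203.

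**Figure D4:**
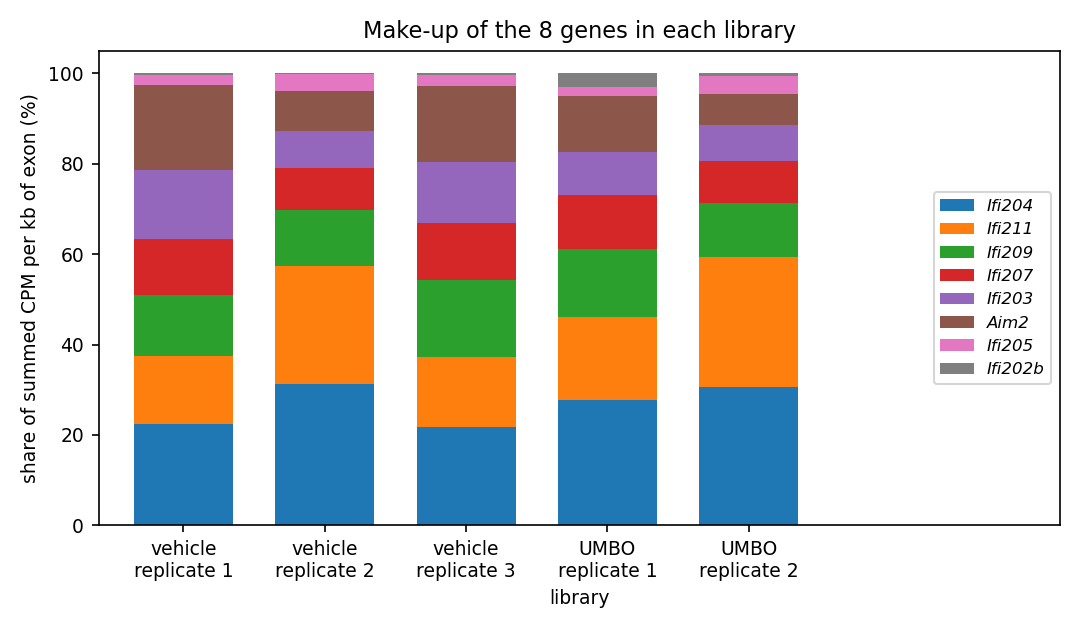
Share of each gene in the summed CPM per kb of exon of the 8 genes, as stacked bars for each library. Aim2 goes from 18.7% in vehicle replicate 1 to 6.89% in UMBO replicate 2, while Ifi211 goes from 15.3% in vehicle replicate 3 to 28.9%.

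A list of 13 genes covered the AIM2 inflammasome, its cytokines and related cell death, and not all of them encode partners of AIM2. All 13 had higher mean values with UMBO (median of 1.63 on the log2 scale), and none passed edgeR's test after adjustment. The median was 0.20 without UMBO replicate 2, with 11 genes higher and 2 lower. Unadjusted, 4 had a p under 0.05, beside 5.3% of all genes tested that were higher and 2.06% that were lower at that level. Pycard, which encodes the adaptor ASC, was at a log2 fold change of 1.71 (standard error 0.613) and Gsdmd, the pore-forming gasdermin, at 1.63 (standard error 0.688). Casp1, the protease of the complex, was at 1.22 (standard error 0.656). These were 0.64, 0.47 and -0.03 without UMBO replicate 2. Of the cytokines that caspase-1 cleaves, Il1b was at 1.81 (standard error 0.92), or 0.07 without that library, and Il18 at 0.17 (standard error 0.185). Il18 was nearly level over the libraries, at 16.7, 21.2 and 18.6 CPM with vehicle and 20.4 and 22.1 CPM with UMBO. Mefv, which encodes the sensor pyrin, had the widest value of the list at 2.63 (standard error 1.20), from 0.0936, 0.608 and 0.106 CPM to 0.257 and 3.05 CPM, and was at -0.04 without UMBO replicate 2. In all 6 of these named genes UMBO replicate 1 lay below vehicle replicate 2 and UMBO replicate 2 above it. Casp8 and Ninj1 were the 2 genes of the list with both UMBO libraries above all vehicle libraries, beside 11.5% of all genes tested.

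In the cGAS-STING pathway, the other route by which cytosolic DNA is sensed, 9 listed genes were tested. Of these 7 had higher and 2 lower mean values with UMBO. In edgeR 1 of them, a higher one, had an unadjusted p under 0.05, beside 5.3% of all genes tested that were higher at that level. Cgas, the DNA sensor, was at a log2 fold change of 1.36 (standard error 0.524), and Tmem173, which encodes STING, at 1.34 (standard error 0.551). The kinase gene Tbk1 was at -0.27 (standard error 0.196). The transcription factor genes Irf3 and Irf7 were at 0.54 (standard error 0.238) and 1.68 (standard error 0.787). The median of the list was 0.86, and 0.21 without UMBO replicate 2, where Cgas was at 0.32, Tmem173 at 0.43 and Irf7 at 0.45. Ifnb1, the type I interferon gene itself, had 2, 2 and 0 reads with vehicle and 1 and 3 reads with UMBO, so no difference was detectable at this depth.

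Receptors and signal transducers of interferon comprised 14 listed genes, of which 11 had higher and 3 lower mean values with UMBO. Their median was 0.64 on the log2 scale and 0.09 without UMBO replicate 2. Before adjustment, 2 genes had p under 0.05 in edgeR, both higher, beside 5.3% of all genes tested that were higher at that level. Irf1 was at a log2 fold change of 1.41 (standard error 0.86), Stat2 at 0.77 (standard error 0.434) and Irf9 at 0.73 (standard error 0.413). Spi1, which encodes the myeloid factor PU.1, had the widest value of the list at 1.65 (standard error 0.641). With UMBO replicate 2 left out, Spi1 was at 0.61, Irf9 at 0.13, Stat2 at 0.02 and Irf1 at -0.14, so these values rest largely on that library. Ifng, encoding interferon-γ, had 6, 30 and 23 reads with vehicle and 16 and 42 reads with UMBO, and the groups overlapped.

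Most markers of leukocytes also had higher mean values with UMBO, and for several cell types this turned without UMBO replicate 2. The 10 markers of monocytes and macrophages were all higher in mean with UMBO (median of 1.63 on the log2 scale). In 5 of them both UMBO libraries lay above all vehicle libraries, beside 11.5% of all genes tested. The median of the list was 0.69 without UMBO replicate 2, with 8 genes higher and 2 lower, Ly6c2 (-0.18) and Ccr2 (-0.30). Their summed level was 157.3 to 310.8 CPM with vehicle and 361.6 to 774.9 CPM with UMBO, and no marker was at 0. Within this list Itgam (CD11b) was at 1.57 (standard error 0.447) with both UMBO libraries above all vehicle libraries, and Ptprc (CD45) at 0.83 (standard error 0.393) with overlap. The 8 microglia markers had a median of 0.69 with summed levels of 333 to 486.1 CPM against 629.7 to 769.8 CPM, with 6 higher and 2 lower. Tmem119 was at 0.79 (standard error 0.272), while P2ry12 and Sall1 were at -0.05 and -0.07 and lowest in UMBO replicate 2. Without that library the microglia median was 0.56. T and NK cell markers (10 genes, median 1.05) summed to 18.2 to 30.7 CPM with vehicle and 12.5 to 46.9 CPM with UMBO. Of these 9 were higher and 1 lower, and without UMBO replicate 2 the median was -0.84, with 3 higher and 7 lower. Cd3e was at 0.669, 3.16 and 1.56 CPM with vehicle and 0.983 and 5.74 CPM with UMBO. Cd4, the lower one, was at 14.6, 14.0 and 7.31 CPM with vehicle and 4.56 and 8.31 CPM with UMBO. In every library except UMBO replicate 2, Cd4 was the largest single part of the summed level of this list. Both UMBO libraries lay above all vehicle libraries in 6 of the 8 microglia, 5 of the 8 proliferation and 4 of the 5 endothelial markers. Among the markers tested, that held for 1 T and NK cell marker, 1 B cell marker and 0 dendritic cell, neutrophil or neuronal markers.

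The 8 proliferation markers, genes of dividing cells of any type, had a median of 2.23 on the log2 scale, with summed levels of 27.1 to 90.1 CPM against 93.1 to 400.0 CPM. Mki67 was at 1.86 (standard error 0.487). The 6 neuronal markers were all lower in mean, with a median of -0.55, and Rbfox3 was at -0.44 (standard error 0.235). In 4 of the 6 both UMBO libraries lay below all vehicle libraries, beside 11.4% of all genes tested. Medians of the remaining lists were 0.58 for 5 endothelial markers, 1.12 for 4 B cell markers, 0.63 for 5 dendritic cell markers (3 higher and 2 lower) and 1.87 for 3 of 5 neutrophil markers. Of the neutrophil markers not tested, Ly6g was at 0 in vehicle replicates 1 and 3. Mmp8 had 1, 1 and 2 reads with vehicle and 10 and 39 reads with UMBO, so both UMBO libraries lay above all vehicle libraries. The summed level of the dendritic cell markers was 20.6 to 28.3 CPM with vehicle and 14.99 to 20.9 CPM with UMBO. Most of this sum came from Flt3 and Zbtb46 (vehicle means of 12.7 and 10.8 CPM), the 2 lower markers. The 3 higher ones had vehicle means of at most 0.292 CPM. Leaving out UMBO replicate 2 gave medians of 0.91 for proliferation, -0.29 for neurons, 0.55 for endothelial cells, -0.11 for B cells, -0.36 for dendritic cells and -0.14 for neutrophils. Relative to the vehicle mean on the log2 scale, the median of the 7 members other than Ifi202b was -0.98, 0.97 and -0.11 with vehicle and 0.58 and 2.33 with UMBO. The macrophage list was at -0.62, 0.67, -0.10, 0.77 and 2.41 in the same libraries and the proliferation list at -0.21, 0.97, -0.69, 1.08 and 3.03. The part of these cell types in the values of the family was not tested.

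**Figure D5:**
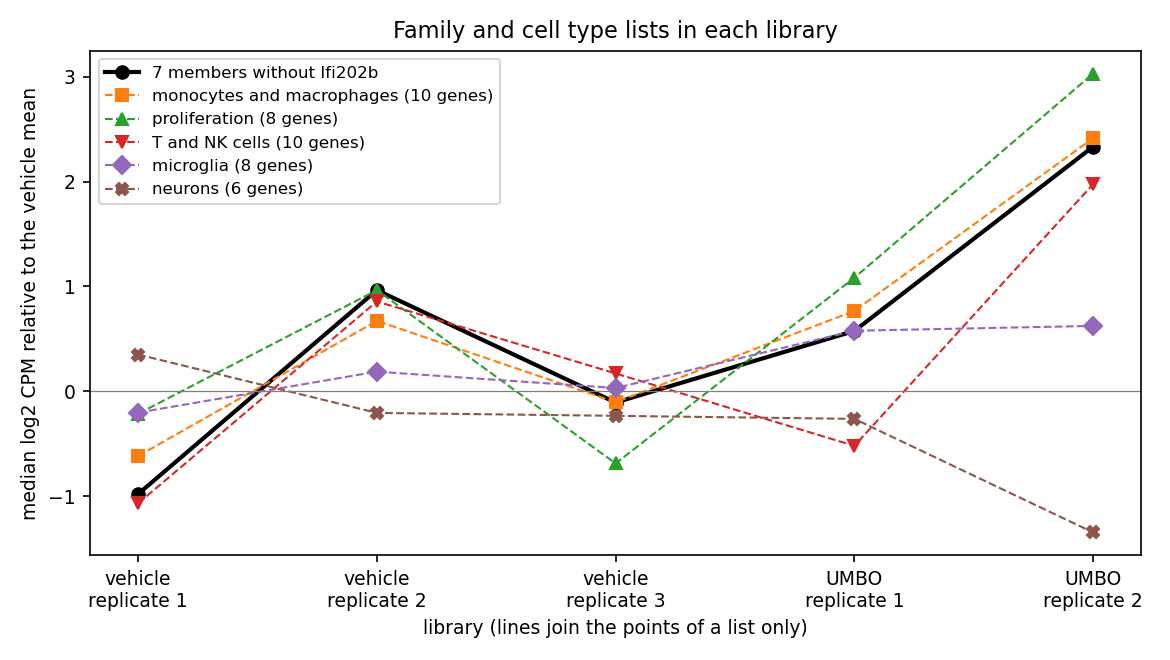
Median log2 CPM relative to the vehicle mean in each library, for 7 members without Ifi202b and for lists of cell type markers. The family (2.33) lies near the macrophage list (2.41) in UMBO replicate 2, where proliferation genes are at 3.03 and neuronal genes at -1.34.

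Genes with a profile most like that of the family over the 5 libraries were ranked by the root mean square distance between centered log2 CPM values, among 16425 genes with a mean of at least 1 CPM. The 5 nearest were Snx20 (0.068), Fcgr1 (0.073), Aif1 (0.078), Cd48 (0.085) and Irf8 (0.087). Over the 4 libraries without UMBO replicate 2 they ranked 8, 2, 3, 5 and 11. Fcgr1 is an Fc receptor of monocytes and macrophages, Aif1 encodes the microglia and macrophage protein Iba1, Cd48 is a surface protein of leukocytes, and Irf8 is a transcription factor of myeloid cells. Aif1, for example, was at 6.08, 21.1 and 9.07 CPM with vehicle and 16.8 and 60.7 CPM with UMBO. Among the members, Ifi207 (0.067) and Ifi209 (0.109) lay nearest to the family's median profile, Aim2 (0.414), Ifi205 (0.522) and Ifi211 (0.525) farther, and Ifi202b (1.16) farthest.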

How the data were processed

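Bulk RNA of 5 right hemispheres was analysed. The methods describe groups of equal size, but only 2 UMBO libraries were used here. The authors aligned the reads to GRCm38 using STAR (2.7.2a) and deposited a raw count for each gene, without normalization. Annotation release and strand setting are not given in the sources used here. GENCODE M21 gave a symbol for 55394 of 55573 identifiers, and the rest held at most 0.101% of a library. Groups and replicate numbers came from the sample titles. Replicates are taken as separate mice, and their number, more than depth, limits precision.

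Genes passing filterByExpr (0.122 CPM in 2 libraries) were normalized by TMM and fitted with edgeR 4.0.16 in R 4.3.3 (quasi-likelihood, Benjamini-Hochberg threshold of 0.05). Standard errors came from the F statistic, and log2 CPM used a prior count of 2. All 8 members passed, 7 of them also by the vehicle libraries. Alternatives were DESeq2 1.42.0, other scaling, no filter, a replicate block, other lengths and leaving out each library. Values of lists, levels and nearest genes without UMBO replicate 2 were added after seeing the data. The fit was tested on simulated data. Members and gene lists were chosen with earlier results of these data known. Genes named were the members, the other cluster genes with 2 neighbors on each side, defining genes and the gene of widest log2 fold change of each pathway list, defining markers and the 5 nearest profiles. The values of 1 defining gene are not reported here. Snap25, Ifnb1, Ly6g, Mmp8, P2ry12, Sall1, Cd4, Casp8, Ninj1, Ly6c2, Ccr2, Flt3 and Zbtb46 were added after their values were seen. Libraries of a group differed by a chi-square per gene of at least 73.6, so none was a duplicate.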

Additional observations from a re-analysis of the deposited data

How the results depend on the processing

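The members' median log2 fold change lay between 1.64 and 1.79 with DESeq2 size factors, library size only, no filter on low counts and the DESeq2 Wald test. With library size only, the median of all genes was 0.13 in place of 0.01. Leaving out 1 library gave members' medians between 0.32 (without UMBO replicate 2) and 2.56 (without vehicle replicate 2). Members with UMBO above every vehicle library numbered from 1 to 8, with 8 when vehicle replicate 2 or UMBO replicate 1 was left out. Ifi205 ranged from -0.34 (without UMBO replicate 2) to 3.14. Genes called numbered 0 with all libraries, 40 with the DESeq2 Wald test, and from 0 to 4543 with 1 library left out, with 4543 (18.3% of the genes tested) and 4 of 8 members without UMBO replicate 1. With 1 UMBO library left, it is assumed to vary like the vehicle group. With the replicate number as a block (4 libraries), 2163 genes (9.42% of those tested) and 8 of 8 members had an adjusted p under 0.05 in edgeR, and the members' median was 1.49. Only 2 numbers are shared and nothing says that they pair mice. Deviations from the group mean correlated at 0.453 for replicate 1 and 0.76 for replicate 2. The UMBO mean lies midway between its 2 libraries, so a gene above it in 1 library is as far below it in the other. The values are therefore not 2 separate checks, and no pairing of mice is read from them. Without UMBO replicate 2, an alternative added after seeing the data, the list medians turned to -0.84 for T and NK cells, -0.11 for B cells, -0.36 for dendritic cells and -0.14 for neutrophils. The cause of these differences was not tested. With a prior count of 0.5, 4 of the 5 nearest genes were shared.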
